A study of Drosophila melanogaster with 3 samples.

Results

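The mitochondrial genome of Drosophila carries 37 genes, and all 37 were found among the 17490 genes counted in each library as the rows whose symbol starts with mt:. They comprised 13 protein-coding genes, 2 ribosomal RNA (rRNA) genes and 22 transfer RNA (tRNA) genes. The counts came from bulk RNA sequencing of the lymph gland, the larval organ in which blood cells (hemocytes) form. Glands of Oregon-R, a wild-type laboratory strain, were pooled from larvae in steady state, that is without wasp infestation, at 72, 96 and 120 h after egg laying (AEL). They were lysed whole, without dissociation into single cells. Each time is represented by 1 library, so differences between times have no replicate check and are differences between libraries rather than developmental stages. Where 3 values stand in a row below, they belong to 72, 96 and 120 h AEL in that order.

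The protein-coding genes of the small circular mitochondrial genome specify core subunits of the respiratory chain and of ATP synthase, and its rRNAs and tRNAs serve the ribosomes that translate them inside the organelle. The other subunits are encoded in the nucleus and imported, and complex II is nuclear throughout. Both strands are transcribed into long RNAs that hold several genes, and tRNAs lie between most of the other genes, where they are cut out by RNase P and RNase Z to release the mRNAs and rRNAs.

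The libraries held 49511614, 37922500 and 34278733 counts. The 6 hemocyte markers (Hml, Pxn, NimC1, Tep4, Ance and srp) were found in every library, with none at 0. In counts per 1000000 counts of the library (CPM) they summed to 28145, 39800 and 40533, and their median log2 ratio at 96 against 72 h AEL was 0.79, with 5 of 6 above 0. The methods describe a dissection that kept the primary lobes and took away the ring gland, posterior lobes and dorsal vessel. Genes of several other tissues were also counted, mostly at higher levels at 72 h AEL. The 8 muscle and dorsal vessel markers summed to 4533, 423.5 and 283.2 CPM, and none was at 0. The 5 ring gland markers summed to 741.7, 279.3 and 120.2 CPM, again with none at 0. The 4 neuron markers summed to 81.4, 9.33 and 8.78 CPM, with brp at 0 at 96 h AEL, and the 4 midgut markers to 89.8, 0 and 0 CPM. Of the midgut sum at 72 h AEL, Jon65Aiii alone held 89.1 CPM, while Jon99Ci, alphaTry and betaTry had 14, 12 and 8 counts. The sum of the 4 fat body markers was higher in the later libraries, with 94.1, 165.4 and 269.1 CPM, but the genes differed. Lsp1beta had 93.9, 159.1 and 142.2 CPM, and Fbp1 0.193, 0 and 105 CPM. Lsp2 and Fbp2 were at 0 at 72 h AEL and higher in each later library. These differences run alongside every comparison with 72 h AEL given below, and their part in those comparisons was not tested. Fewer cells of a type and less RNA per cell cannot be told apart in bulk samples.

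The share of the library taken by mitochondrial RNA was compared first. The 37 genes together took 3.89% of all counts (exact Clopper-Pearson 95% interval 3.88% to 3.89%), 6.64% (6.63% to 6.64%) and 5.54% (5.53% to 5.55%). The rRNA genes took 2.38%, 4.25% and 3.62%, and the protein-coding genes 1.505%, 2.39% and 1.92%. Both classes were therefore highest at 96 h AEL and lowest at 72 h AEL. The tRNA genes took almost nothing, with 2, 3 and 1 counts in all. Intervals here and below cover counting error only. Among genes with 1 to 20 counts, 69.6% to 72.0% had an even count, more than single reads counted independently would give, and the intervals are accordingly too narrow.

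Levels of different genes were compared per length, as CPM scaled between libraries and divided by the gene's length in kb. The levels of the rRNA and protein-coding genes spanned 4 to 5 orders of magnitude within each library. The large ribosomal RNA, mt:lrRNA (mitochondrial genome 12735 to 14058, minus strand), stood at the top with 17189, 32414 and 28315 CPM per kb. The small ribosomal RNA, mt:srRNA (14131 to 14916, minus strand), is separated from it only by mt:tRNA:V, and both rRNAs are parts of the same ribosome. Its level was 0.418, 7.26 and 4.68 CPM per kb, from 17, 214 and 122 counts. Per length, mt:lrRNA was thus 41157-fold above mt:srRNA (95% interval 25706 to 70652), 4465-fold (3905 to 5129) and 6045-fold (5063 to 7280). Nuclear rRNA genes and pseudogenes held 18238, 24034 and 19153 counts in all, fewer than the 1178587, 1609535 and 1242360 of mt:lrRNA alone. The sources used here do not give how rRNA was removed or mRNA selected when the libraries were made. Nor do they give how reads that match several gene copies were counted. Nuclear rRNA and mt:lrRNA may therefore not be comparable, and the same holds for mt:lrRNA and mt:srRNA. The ratio of mt:lrRNA to mt:srRNA is that of their counts and may not be that of the RNAs in the gland.

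Cytochrome c oxidase (complex IV) is the enzyme that passes electrons to oxygen. Its 3 mitochondrially encoded subunits were among the 5 highest mitochondrial protein-coding genes in each library, and mt:CoIII and mt:CoI were the highest. The gene mt:CoIII (4736 to 5524, plus strand) was at 4765, 8173 and 7326 CPM per kb at 72, 96 and 120 h AEL. For mt:CoI (1474 to 3009, plus strand), which encodes the catalytic core, the level was 4087, 5410 and 4379 CPM per kb. A lower level was found for mt:CoII (3083 to 3767, plus strand), the subunit that receives electrons from cytochrome c, with 2033, 2544 and 2283 CPM per kb. These 3 genes lie close together on 1 strand, and mt:CoII stayed near 0.5 of mt:CoI per length, at 0.497, 0.470 and 0.521. The ratio of mt:CoIII to mt:CoI was less steady, at 1.17 (1.16 to 1.17), 1.51 (1.503 to 1.519) and 1.67 (1.66 to 1.68).

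Cytochrome b, mt:Cyt-b (10499 to 11635, plus strand), the only mitochondrially encoded subunit of complex III, had 1411, 3082 and 2481 CPM per kb. It lay below mt:CoII at 72 h AEL and above it at 96 and 120 h AEL. The channel subunit of ATP synthase (complex V), mt:ATPase6 (4062 to 4736, plus strand), had 688.7, 2390 and 1747 CPM per kb. Its partner mt:ATPase8 (3907 to 4068, plus strand) overlaps it by 7 nt, and had 10.97, 20.7 and 10.1 CPM per kb. Per length, mt:ATPase6 was 62.8-fold above mt:ATPase8 (51.2 to 77.9), 115.3-fold (96.8 to 138) and 174-fold (133 to 231).

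The 7 mitochondrially encoded subunits of NADH dehydrogenase (complex I), which takes electrons from NADH, split into an abundant and a scarce set. In the first, mt:ND1 (11721 to 12659, minus strand) had 252.8, 1038 and 719.8 CPM per kb, and mt:ND4 (8207 to 9545, minus strand) 177.0, 616.7 and 417.1. For mt:ND5 (6409 to 8125, minus strand) the level was 221.6, 363.5 and 255.2 CPM per kb, and for mt:ND3 (5608 to 5961, plus strand) 76.8, 345.6 and 206.7. The order of mt:ND4 and mt:ND5 thus turned over, since their ratio per length was 0.799 (0.781 to 0.817), 1.70 (1.67 to 1.73) and 1.63 (1.599 to 1.67).

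In the scarce set, mt:ND2 (240 to 1263, plus strand) had 80, 268 and 109 counts, or 1.51, 6.98 and 3.21 CPM per kb. The gene mt:CoI follows it on the same strand past 3 tRNA genes, and was 2709-fold above mt:ND2 per length (2177 to 3417), 775-fold (688 to 877) and 1363-fold (1130 to 1660). For mt:ND6 (9971 to 10495, plus strand) there were 11, 43 and 20 counts, and mt:Cyt-b, which starts just downstream of it, was 3487-fold, 1411-fold and 2158-fold higher per length. The fewest counts among protein-coding genes were those of mt:ND4L (9545 to 9835, minus strand), with 5, 16 and 2. It shares 1 nt with mt:ND4, which was 534-fold above it per length at 72 h AEL (229 to 1643) and 421-fold at 96 h AEL (259 to 736). Whether reads that touch 2 of these overlapping or adjoining genes were counted is not given in the sources used here, nor is the use of strand. The levels of ATPase8, ND4L and their neighbours are therefore uncertain, and reads from a gene cannot be told apart from those of RNA antisense to it. Reads that also match near-identical copies elsewhere in the genome may have been dropped or split. The gaps between mt:ND2 or mt:ND6 and their neighbours are thus gaps in counts and may not be those of the RNAs.

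**Figure D1:**
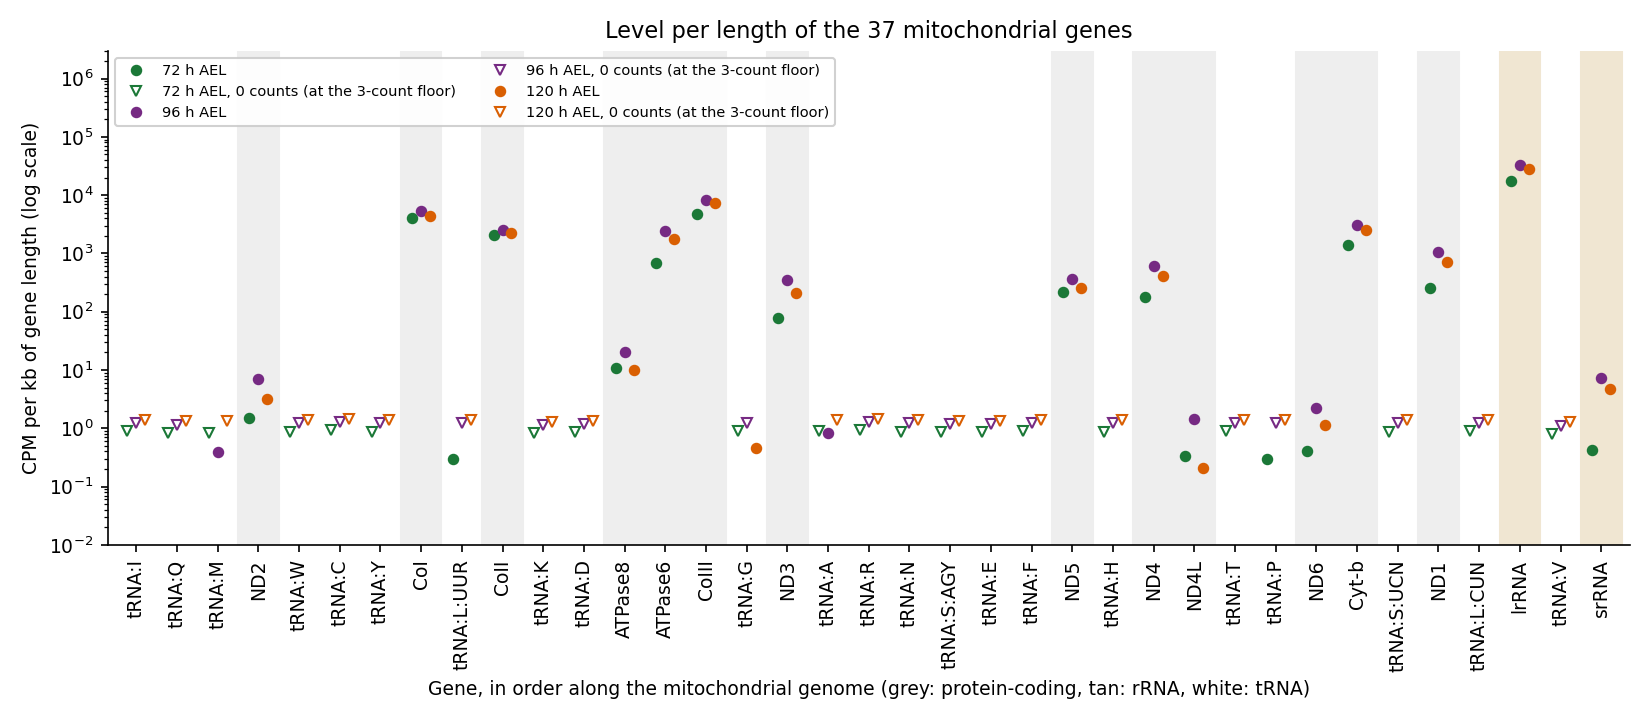
Level of each of the 37 genes in CPM per kb of gene length on a log scale, in the order of the genes along the mitochondrial genome, with filled points for libraries at 72, 96 and 120 h AEL and open triangles at the level of 3 counts where a gene had 0. Points for mt:lrRNA lie at or above 17189 CPM per kb, 9 protein-coding genes lie between 76.8 and 8173, and the tRNA genes lie at 0 or at 1 or 2 counts.

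The order of these 15 levels was the same at 96 and 120 h AEL (Spearman's rho 1 across 15 genes) and nearly the same at 72 h AEL (rho 0.99 with each). Genes are not independent replicates, and the values share the libraries and the gene lengths. Of the 14 pairs of neighbours in the order, 2 did not differ beyond counting error at 72 h AEL, namely mt:srRNA with mt:ND6 and mt:ND6 with mt:ND4L. At 96 h AEL these were mt:srRNA with mt:ND2 and mt:ND6 with mt:ND4L, and at 120 h AEL there were 0. However, mt:ND6 and mt:ND4L had only 20 and 2 counts at 120 h AEL and the intervals are too narrow, so their order there is uncertain. A gap separated the 10 abundant genes, with at least 1000 counts in each library, from the other 5. The lowest abundant gene was mt:ND3 and the highest of the others mt:ATPase8, at 76.8 and 10.97 CPM per kb at 72 h AEL.

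The tRNA genes, of 62 to 72 nt, were close to absent from the counts. At 72 h AEL 20 of 22 were at 0, at 96 h AEL 20 and at 120 h AEL 21. At 72 h AEL mt:tRNA:P and mt:tRNA:L:UUR each had a single count, and so had mt:tRNA:G at 120 h AEL. At 96 h AEL mt:tRNA:M had 1 count and mt:tRNA:A had 2. The other 17, which carry I, Q, W, C, Y, K, D, R, N, S:AGY, E, F, H, T, S:UCN, L:CUN and V in their symbols, were at 0 in every library. A count of 0 allows up to 3 counts, which for the shortest tRNA gene is 0.934, 1.29 and 1.46 CPM per kb. The median protein-coding gene was 237-, 478- and 286-fold above that limit per length. The limit takes reads as counted independently, which the excess of even counts goes against, so these folds are not firm lower bounds. How well RNAs as short as tRNAs were recovered beside longer ones was not tested.

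Nuclear tRNA genes, a comparison chosen after the values were seen, were also rarely counted, with at least 1 count for 10, 9 and 12 of 290. Reads that match near-identical gene copies may have been dropped or split, so nuclear and mitochondrial tRNA genes may not be comparable. Small nucleolar RNA genes of 46 to 316 nt were counted more often, 197, 181 and 181 of 258. Across the mitochondrial genes, 24 were shorter than 300 nt, among them mt:ATPase8 and mt:ND4L, and 1, 2 and 1 of them had at least 10 counts. All 13 longer genes had at least 10 counts in every library, and 10 had at least 1000. The scarce mt:srRNA, mt:ND2 and mt:ND6 were among the longer ones.

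The change from 72 to 96 h AEL was examined next. All 10 abundant genes were higher at 96 h AEL, by 1.25- to 4.504-fold in counts scaled by trimmed mean of M-values (TMM), each with an interval above 1. The folds were over 3 for the complex I genes other than mt:ND5 and for mt:ATPase6, close to 2 for mt:Cyt-b and mt:lrRNA, and lowest for the complex IV genes mt:CoI and mt:CoII. A gene was called where its log2 ratio of scaled CPM, after adding 1 CPM, was 1 or more in either direction (2-fold). Of the 10 abundant genes, 5 were called higher (mt:ND1, mt:ND3, mt:ND4, mt:ATPase6 and mt:Cyt-b) and 0 lower. Over all 9056 genes that reached 1 CPM in at least 1 library, 4.76% were called higher and 19.5% lower. The median log2 ratio was 1.02 for the 10 abundant genes and −0.02 for all genes. By class it was 1.13 for the 9 abundant protein-coding genes, 0.98 for the 12 that reached 1 CPM and 0.82 for all 13. The 2 rRNA genes had 0.92 (mt:lrRNA) and 2.34 (mt:srRNA, from 17 counts at 72 h AEL), so their median of 1.62 rests on mt:srRNA. With a filter of 10 CPM, which leaves mt:lrRNA alone, it is 0.92 beside 1.13 for protein-coding genes, and the order of the classes turns over.

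Among complex I genes, mt:ND1 went from 237.3 to 974.4 scaled CPM, and so was 4.11-fold higher (4.02 to 4.19). For mt:ND3 the values were 27.2 and 122.4 CPM, 4.504-fold (4.24 to 4.78), and for mt:ND4 237.0 and 825.7 CPM, 3.48-fold (3.41 to 3.56). The subunit mt:ND5 stood apart from these with 380.5 and 624.1 CPM, 1.64-fold (1.61 to 1.67), below the 2-fold threshold. In complex V, mt:ATPase6 went from 464.9 to 1614 CPM, 3.47-fold (3.42 to 3.52), and the complex III gene mt:Cyt-b from 1604 to 3504 CPM, 2.18-fold (2.17 to 2.20).

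Folds of the complex IV genes were below the threshold. For mt:CoI the values were 6278 and 8309 CPM, 1.32-fold (1.32 to 1.33), mt:CoII 1393 and 1743 CPM, 1.25-fold (1.24 to 1.27), and mt:CoIII 3759 and 6448 CPM, 1.72-fold (1.71 to 1.73). The rRNA mt:lrRNA had 22759 and 42916 CPM, 1.89-fold (1.88 to 1.89), just below the threshold. None of the 10 was lower at 96 h AEL.

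The 5 scarce genes were higher at 96 h AEL as well. The largest fold of all was that of mt:srRNA, from 0.328 to 5.71 CPM, 17.4-fold (10.6 to 30.4). For mt:ND2 the fold was 4.63 (3.59 to 6.02), for mt:ND6 5.40 (2.74 to 11.6), for mt:ND4L 4.42 (1.55 to 15.4) and for mt:ATPase8 1.89 (1.43 to 2.502). Of these, mt:srRNA and mt:ND2 were called, while mt:ND6 had a log2 ratio of 0.82 after the addition of 1 CPM. These 5 rest on few counts. At 72 h AEL mt:srRNA and mt:ND6 did not reach 1 CPM, so they entered the set of genes only through a library in which they were higher, and mt:ND4L did not enter it. At 4-fold, mt:srRNA, mt:ND1 and mt:ND3 were higher, beside 1.20% of all genes, and no member was lower, beside 8.62%.

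**Figure D2:**
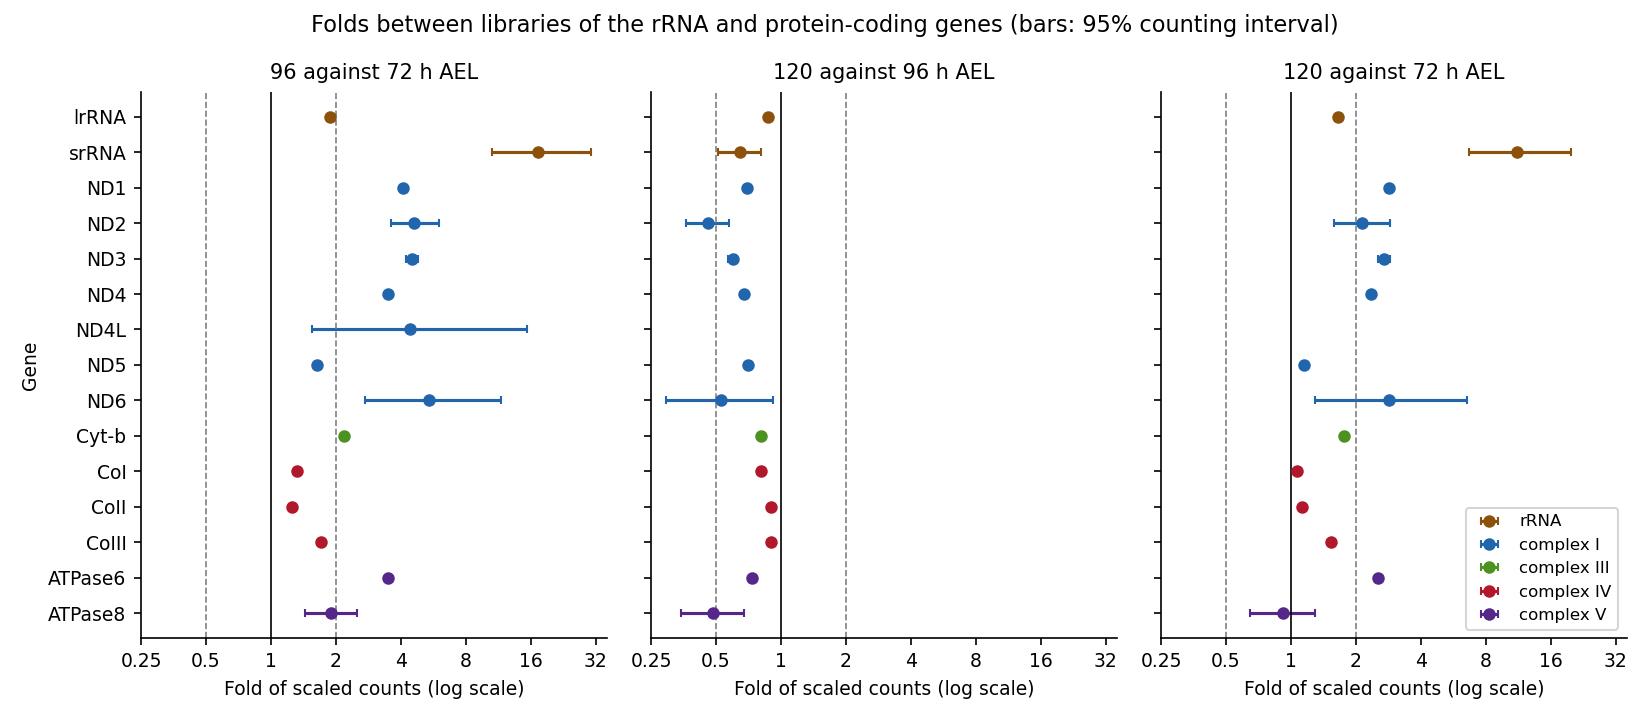
Fold of TMM-scaled counts on a log scale for the rRNA and protein-coding genes in the 3 comparisons, coloured by complex, with bars for the exact 95% counting interval, a solid line at 1 and dashed lines at 0.5 and 2; mt:ND4L, with 2 counts at 120 h AEL, is drawn only at 96 against 72 h AEL. Every point lies above 1 at 96 against 72 h AEL, from 1.25 for mt:CoII to 17.4 for mt:srRNA, and every point drawn lies below 1 at 120 against 96 h AEL.

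The step from 96 to 120 h AEL had the opposite direction. All 10 abundant genes were lower at 120 h AEL, by 1.12- to 1.67-fold, each with an interval below 1 for the ratio of 120 to 96 h AEL. None was called, beside 1.47% of all genes called higher and 1.12% called lower. The median log2 ratio was −0.38 for the 10 genes and 0 for all genes. The largest differences among them were those of the complex I genes, with mt:ND3 at 122.4 and 73.2 CPM (1.67-fold lower, 1.59 to 1.76) and mt:ND4 at 825.7 and 558.5 CPM (1.48-fold lower, 1.45 to 1.51). The genes mt:ND1 and mt:ND5 were 1.44-fold (1.42 to 1.47) and 1.42-fold (1.40 to 1.45) lower, and mt:ATPase6 1.37-fold (1.35 to 1.39).

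The genes with the highest levels per length differed less between 96 and 120 h AEL. They were lower by 1.24-fold for mt:Cyt-b (1.23 to 1.25), 1.24-fold for mt:CoI (1.23 to 1.24), 1.15-fold for mt:lrRNA (1.14 to 1.15), 1.12-fold for mt:CoIII (1.11 to 1.12) and 1.12-fold for mt:CoII (1.10 to 1.13). Among the scarce genes, mt:ND2 was 2.17-fold lower (1.73 to 2.74), mt:ATPase8 2.06-fold (1.49 to 2.89), mt:ND6 1.90-fold (1.09 to 3.41) and mt:srRNA 1.55-fold (1.24 to 1.95). With 16 and 2 counts, mt:ND4L was also lower. At 4-fold 0 members passed, beside 0.188% of all genes higher and 0.0663% lower.

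At 120 h AEL 10 of 10 abundant genes were still above their levels at 72 h AEL, by 1.07- to 2.85-fold. Of these, 4 were called higher (mt:ND1, mt:ND3, mt:ND4 and mt:ATPase6), beside 7.39% of all genes called higher and 20.7% called lower. The median log2 ratio was 0.77 for the 10 genes and −0.04 for all genes. The largest was mt:ND1 at 2.85-fold (2.79 to 2.91) and the smallest mt:CoI at 1.07-fold (1.07 to 1.08). The sign of mt:CoI depended on the scaling, since its log2 ratio was 0.10 with TMM and −0.01 when libraries were scaled by their total counts. Of the scarce genes, mt:srRNA was 11.2-fold higher (6.72 to 19.9), and mt:ATPase8 had a fold of 0.917 (0.643 to 1.30) that did not differ from 1 beyond counting error. At 4-fold 0 members passed, beside 2.11% of all genes higher and 9.68% lower. The comparisons share libraries and are not independent of each other.

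The make-up of the mitochondrial mRNA pool does not depend on the scaling between libraries. Complex IV genes held 79.5% of the counts of the 13 protein-coding genes (79.4% to 79.5%), 68.2% (68.1% to 68.4%) and 71.0% (70.9% to 71.1%). The share of mt:CoI was 43.6%, 34.4% and 33.9%, while that of mt:CoIII was 26.1%, 26.7% and 29.2%. Complex I genes held 6.14% (6.09% to 6.20%), 10.6% (10.5% to 10.6%) and 8.83% (8.76% to 8.90%). The share of complex V was 3.24%, 6.69% and 5.96%, and that of mt:Cyt-b in complex III 11.2%, 14.49% and 14.2%. The 4 protein-coding genes of the minus strand, all of complex I, held 5.94%, 10.03% and 8.44%. The counts of mt:lrRNA, not set per length, were 1.58, 1.78 and 1.89 times those of the 13 protein-coding genes together.

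**Figure D3:**
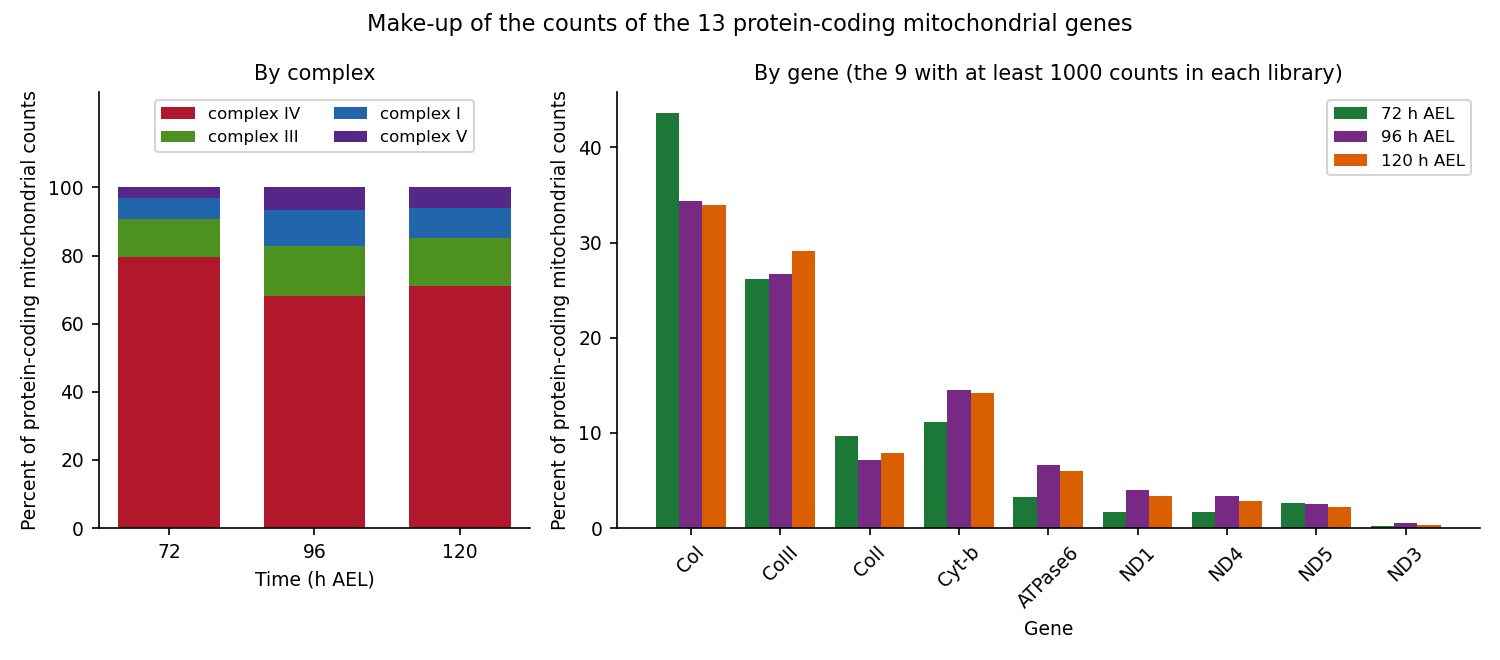
Percent of the counts of the 13 protein-coding genes held by each complex (left, stacked bars) and by each of the 9 genes with at least 1000 counts in every library (right), at 72, 96 and 120 h AEL. Between 72 and 96 h AEL the bars change from 79.5% to 68.2% for complex IV and from 43.6% to 34.4% for mt:CoI, while mt:ATPase6, mt:ND1, mt:ND4 and mt:Cyt-b hold larger shares at 96 h AEL.

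Nuclear genes of the same complexes were mostly lower at 96 than at 72 h AEL. Of the 69 listed nuclear genes of complexes I to V, 66 reached 1 CPM, and 61 of these had a log2 ratio below 0. None was called in either direction, beside 4.76% of all genes called higher and 19.5% called lower. Median log2 ratios were −0.48 for complex I (32 genes), −0.38 for complex II (4 genes), −0.64 for complex III (8 genes), −0.45 for complex IV (9 genes) and −0.48 for complex V (13 genes), beside −0.02 for all genes. By contrast, the 12 mitochondrial protein-coding genes that reached 1 CPM had a median log2 ratio of 0.98. It was 1.13 for the 9 abundant genes and 0.82 with no filter.

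Within complex I, the nuclear subunits with the lowest and highest log2 ratios were ND-39 (331.0, 181.3 and 170.1 CPM, log2 ratio −0.87) and ND-AGGG (43.0, 53.3 and 44.9 CPM, 0.30), with ND-18 at −0.69 and ND-MLRQ at 0.28 next to them. In complex III the lowest were UQCR-C2, a core subunit (425.4, 226.3 and 208.8 CPM, −0.91), and RFeSP, the iron-sulphur protein (−0.90), and the highest were UQCR-11 (0.03) and ox (0.00). In complex IV COX4 had 391.7, 224.3 and 213.3 CPM (−0.80), and cype −0.63, while COX7C and COX6B were at −0.23 and −0.14. The ATP synthase genes ATPsynB and ATPsyngamma had log2 ratios of −0.85 and −0.83, and ATPsynbeta, the catalytic subunit, and sun −0.30 and −0.25. The succinate dehydrogenase genes, which form complex II, ranged from −0.48 for SdhD and −0.47 for SdhB to −0.30 for SdhC and −0.28 for SdhA.

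The sum of the mitochondrial genes of a complex was therefore compared with the sum of its nuclear genes. These sums are not per length, so the ratio is read only across times. In complex I the ratio of summed CPM was 0.229, 0.917 and 0.671. It was 0.760, 2.73 and 2.39 in complex III, 5.17, 10.3 and 9.14 in complex IV, and 0.0409, 0.198 and 0.163 in complex V. All 4 ratios were lowest at 72 h AEL and highest at 96 h AEL.

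From 96 to 120 h AEL both sets were lower, and the nuclear medians were −0.09 to −0.14, with 59 of 66 genes below 0 and 0 called, beside 1.47% of all genes called higher and 1.12% lower. Between 72 and 120 h AEL 63 of 66 were below 0. Called lower were 2 of 66, beside 20.7% of all genes, namely UQCR-C2 (log2 ratio −1.02) and Cyt-c1, cytochrome c1 (−1.02), both of complex III. Muscle is a tissue rich in mitochondria, and its 8 markers were called lower at 96 than at 72 h AEL, 8 of 8, beside 19.5% of all genes, with a median log2 ratio of −3.59. Their part in the lower values of the nuclear genes was not tested.

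Genes for the upkeep and expression of mitochondrial DNA were listed as a further group of 21, of which 20 were matched and 18 reached 1 CPM. At 96 against 72 h AEL 16 of the 18 had a log2 ratio below 0, the median was −0.24 beside −0.02 for all genes, and 0 were called, beside 4.76% of all genes higher and 19.5% lower. TFAM, which packages mitochondrial DNA, had 113.0, 77.6 and 67.3 CPM (log2 ratio −0.54 from 72 to 96 h AEL), and mldr was at −0.59. The transcription factor mtTFB2 had 16.7, 21.0 and 19.2 CPM (0.31), and RNaseZ, which cuts the 3′ ends of tRNAs, 39.6, 46.3 and 37.2 CPM (0.22). At 120 against 96 h AEL the median was −0.10, beside 0 for all genes, and 0 were called, beside 1.47% higher and 1.12% lower.

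**Figure D4:**
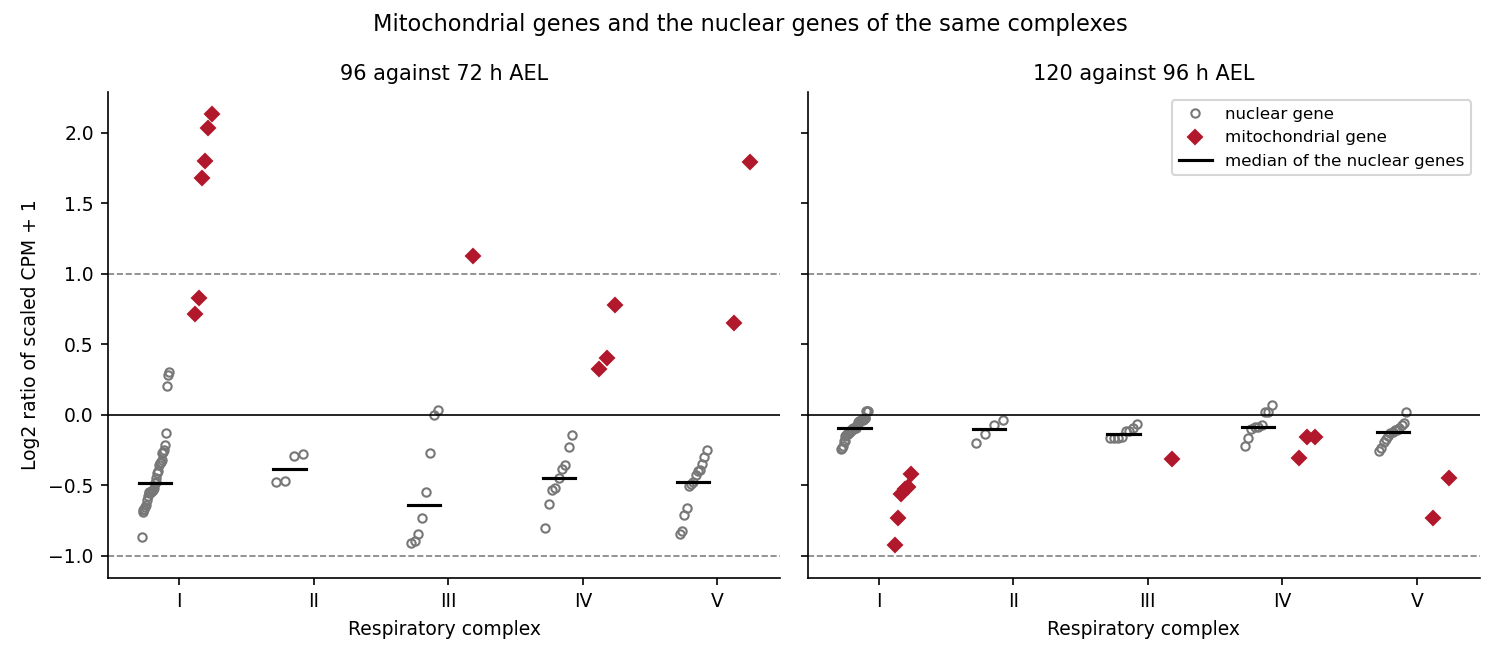
Log2 ratio of scaled CPM, after adding 1 CPM, for mitochondrial genes (diamonds) and nuclear genes (circles, bar at the median) of respiratory complexes I to V at 96 against 72 h AEL (left) and 120 against 96 h AEL (right), for genes that reached 1 CPM in at least 1 library. At 96 against 72 h AEL every mitochondrial gene lies above 0 and the nuclear medians lie between −0.64 and −0.38, and at 120 against 96 h AEL every mitochondrial gene lies below 0. Among these, mt:ND6 reached 1 CPM only at 96 h AEL, where it was highest, so the filter favoured its place in both panels.

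The ratio of 120 to 96 h AEL was nearer to 1 for genes with higher levels. Across the 14 rRNA and protein-coding genes other than mt:ND4L, Spearman's rho between the level per kb at 72 h AEL and the ratio of 120 to 96 h AEL was 0.92, and across the 10 abundant genes it was 0.90. For the level at 120 h AEL and the ratio of 96 to 72 h AEL, rho was −0.72 across the 14 genes and −0.50 across 10. In both cases the level was taken from a library that the ratio did not use. The genes share libraries, depth and transcripts, so these are descriptions across genes.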

How the data were processed

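Per the labels, lymph glands were lysed intact in Trizol, and libraries of their total RNA were sequenced on an Illumina instrument. The deposited values are raw counts, not normalized, for each gene. The submitters' processing notes name FastQC 0.11.8, STAR 2.5.3a, featureCounts 1.6.0 and the build BDGP6, with no role or order. The settings for strand, read pairs, multiply mapped reads and reads over 2 genes, and the annotation release, are not given in the sources used here. Reads that also match near-identical copies elsewhere in the genome may have been dropped or split.

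Samples were grouped by the time in the labels, 1 library each. Lengths, strands and the coordinates printed were taken from an Ensembl annotation (BDGP6.54), in which all 37 genes were found by identifier. These are on that annotation, of the same Drosophila Release 6 assembly that BDGP6 names. No sequence is shown, since only names and annotation were used. CPM were scaled by TMM factors of 1.05, 0.989 and 0.967 from edgeR 4.0.16 (R 4.3.3), computed over the 9056 genes that reached 1 CPM before scaling in at least 1 library. DESeq2 1.42.0 supplied alternative size factors. Other steps used Python 3.11.15, NumPy 2.4.6, pandas 2.3.3, SciPy 1.17.1 and Matplotlib 3.10.9. For log2 ratios 1 CPM was added to each value as a pseudocount, so that changes of low genes are understated, and a 2-fold change (or 4-fold, where said) was called. Folds of single genes were ratios of the scaled counts themselves, each with an exact 95% interval of a ratio of Poisson counts. A count of 0 was read against a floor of 3 counts per library, which is 0.0606, 0.0791 and 0.0875 CPM before scaling. A fold with mt:ND4L at 120 h AEL is not given, since it had 2 counts. With 1 library per time there was no test and no p-value.

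The genes and lists were chosen with earlier results of these data known. All mitochondrial genes are named, and of each nuclear list the members with the 2 largest and 2 smallest log2 ratios at 96 against 72 h AEL among those with at least 10 CPM in a library. The nuclear lists are named with current symbols, and 1 of 121 list symbols (TEFM) was not matched. The calculation was tested on simulated counts for 17490 genes, of which 8538 were tested. At 96 against 72 h AEL 200 of 200 genes changed 4-fold were called in the right direction and 0 of the unchanged genes were called, and the interval covered the true ratio of 95.2% of unchanged genes. No spread between libraries other than counting error was simulated. The simulated counts were independent Poisson counts, as the interval assumes, so coverage near 95% was built in. The excess of even counts was not simulated. Genes as low as mt:srRNA, mt:ND6 and mt:ND4L were not among those changed. Alternatives were other scalings, pseudocounts, filters, call rules and denominators, counts thinned to the smallest library, and gene lengths without overlaps.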

Additional observations from a re-analysis of the deposited data

How the results depend on the processing

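Of 270 log2 ratios of members under alternatives, 189 stayed within their counting interval, 80 moved outside it and 1 reversed. Taken as folds, only 10 of the 270 moved by over 1.5 times. The reversed one was that of mt:CoI at 120 against 72 h AEL, which was −0.014 with total-count scaling. Total-count scaling shifted the median of all genes at 120 against 72 h AEL from −0.04 to −0.15, which is a construction of that scaling. Taken as a fold, the median of protein-coding genes and of each nuclear list moved by less than 1.5 times under every alternative run. Each also kept its sign. As log2 ratios some small medians moved more, such as −0.48 to −0.29 for protein-coding genes at 120 against 96 h AEL with summed counts. That of the 2 rRNA genes (1.62 at 96 against 72 h AEL) was 2.34 with a pseudocount of 0.1 CPM, 0.96 with 5 CPM, 0.92 with a filter of 10 CPM and 0.92 for summed counts, and at 120 against 72 h AEL (1.27) it was 1.93 with 0.1 CPM. The last 2 values at 96 against 72 h AEL rest on mt:lrRNA. With 0.1 and 5 CPM mt:lrRNA stayed at 0.915 there, while mt:srRNA had 3.76 and 1.01 in place of 2.34. At 120 against 72 h AEL with 0.1 CPM, mt:lrRNA stayed at 0.72 and mt:srRNA had 3.14 in place of 1.82. The moves with other pseudocounts thus rest on mt:srRNA. A 4-fold threshold, stricter by construction, left 3 of the 7 members called higher at 96 against 72 h AEL. Over all genes it left 1.20% in place of 4.76%. For 120 against 72 h AEL it left 0 of 5 members, and 2.11% of all genes in place of 7.39%. Both the 7 and the 5 include mt:srRNA, which reached 1 CPM only in the later libraries, where it was higher. With a pseudocount of 0.1 CPM 2 members were called lower at 120 against 96 h AEL, in place of 0. The share of all genes called with that pseudocount was not computed, so these 2 have no background.

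Relative to nuclear genes without rRNA in place of all counts, rRNA genes were at 2.48%, 4.55% and 3.84% at 72, 96 and 120 h AEL, and protein-coding genes at 1.57%, 2.56% and 2.03%. Per kb of length, mt:lrRNA took 55.6%, 57.5% and 58.8% of the mitochondrial total in place of 61.3%, 64.0% and 65.4% of counts, complex IV 35.2%, 28.6% and 29.1%, and complex I 4.21% at 96 and 3.33% at 120 h AEL. Within protein-coding genes only, complex IV took 79.5%, 68.2% and 71.0% and complex I 6.14%, 10.6% and 8.83%, in place of 30.8%, 24.6% and 24.5%, and 2.38%, 3.81% and 3.05%, of the counts of all 37 genes.

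No paired analysis was possible because each time has 1 library, and leaving out a replicate was not possible either. Depth limits mt:srRNA, mt:ND6 and mt:ND4L, and tRNA genes were too low to compare between times.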
